A study of Mus musculus with 9 samples.

Results

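The nuclear genes of oxidative phosphorylation were compared, complex by complex, between nestin-reporter cells of the mouse dentate gyrus (DG) and of the subventricular zone (SVZ). The genes were chosen by their symbols: the Nduf, Sdh, Uqcr, Cox and Atp5 series, the cytochrome genes Cyc1 and Cycs, and the assembly factor series Ndufaf, Sdhaf and Uqcc with Surf1, Sco1 and the numbered Cox assembly genes, leaving out Ndufa4l2 and symbols containing -ps. This gave 105 of the 14477 genes measured. They held 36 subunit genes of complex I, 4 of complex II, 9 of complex III, 15 of complex IV, 16 of complex V and 23 assembly factor genes, besides Cycs, the gene of cytochrome c, and Atp5s, the gene of a factor B protein. A further 14 annotated genes fit the same symbols, of which 5 were pseudogenes and 9 were protein-coding, such as Cox6a2, Cox8b, Cox20, Ndufaf6 and Sco2. They were not among the 14477 genes, so no values can be given for them.

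Complex I takes electrons from NADH and complex II takes them from succinate, and both pass them to ubiquinone. Complex III passes them on to cytochrome c and complex IV to oxygen, and the proton gradient that complexes I, III and IV build up drives complex V, the ATP synthase. Most subunits are encoded in the nucleus and the rest in mitochondrial DNA, and quiescent neural stem cells are known to draw less on this pathway than the neuroblasts they give rise to.

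The DG group held 5 libraries and the SVZ group 4. All came from untreated mice of the strain B6.Cg-Tg(Nes-EGFP)1Yamm in standard housing, in which regulatory sequence of nestin drives a green fluorescent protein, and cells were sorted by that fluorescence from the dissociated tissue. Nestin is a filament protein of neural precursors that cells of brain vessels can also make, so the sort does not select precursors alone. The mice's age, and whether a library held cells of 1 animal or of several, are not given in the labels, so the p-values cover the spread from library to library and may not cover that between animals. Recovered totals were 33627909 to 41164044 reads in DG libraries and 31126803 to 32528255 reads in SVZ libraries. All 105 genes had reads in all 9 libraries, and the lowest count was 21 reads. Levels are given as log2 CPM, the deposited log2 values of read counts scaled to the library total.

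The labelled precursor identity was set beside cell type markers. Markers are called by the test defined in the next paragraph, which called 66.6% of all 14477 genes, 32.9% higher and 33.7% lower in DG. Of the 7 neural precursor markers, Gfap and Slc1a3 were higher in DG (log2 fold changes 4.17 and 3.44) and Nes, Sox2 and Egfr were lower (-0.95, -1.11 and -1.41). The other 2, Vim among them, did not pass the test. The summed level of that list, largely Slc1a3, was 10082 to 14637 CPM in DG libraries against 1452 to 2028 CPM in SVZ libraries. All 8 pericyte markers were higher in DG, with a summed level of 5730 to 12369 CPM in DG libraries against 52.2 to 133 CPM in SVZ libraries. All 8 endothelial markers (553 to 1241 CPM in DG, 5.21 to 39.9 CPM in SVZ), the 4 measured of 5 smooth muscle markers (542 to 943 CPM in DG, 26.7 to 67.7 CPM in SVZ) and all 5 fibroblast markers (131 to 267 CPM in DG, 4.06 to 8.65 CPM in SVZ) were higher too. All 6 neuroblast markers were lower in DG (5341 to 7916 CPM in DG, 18877 to 22596 CPM in SVZ), as were all 5 markers of cycling cells (469 to 830 CPM in DG, 2047 to 2283 CPM in SVZ). Higher in DG were also 5 of 5 oligodendrocyte precursor and 4 of 4 red blood cell markers, and lower were 4 of 5 ependymal markers. Of 6 oligodendrocyte markers 4 were higher and 1 lower. Of 6 microglial markers 2 were lower, 3 had a positive log2 fold change, and all overlapped between the groups. Of 3 measured choroid plexus markers Folr1 and Clic6 were lower and Ttr was not called. Their sum was 182 CPM in DG 2 and 26.7 CPM in DG 5, against 3.21 to 5.92 CPM in the other DG libraries and 5.90 to 16.4 CPM in SVZ libraries. Of 6 mature neuron markers 2 were higher and 2 lower, and DG 3 had the largest sum (632 CPM, against 172 to 240 CPM in the other DG libraries). No marker was at 0 reads in any library. All 14477 genes were over 1 CPM in at least 3 libraries, so a marker low in both groups would be missing. The endothelial and fibroblast sums were low in SVZ libraries, so these markers may have been kept because of their DG libraries. That all of them were higher may therefore be set in part by this filter. The same may hold for single markers of other lists that were low in 1 group. In bulk libraries fewer cells of a type and less RNA per cell cannot be told apart, and the part of these markers in the results that follow was not tested.

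Most of the 105 genes were not called different between the DG and SVZ cells. A gene was called different where the Benjamini-Hochberg adjusted p of limma, taken over all 14477 genes, was under 0.05. By this rule 26 of the 105 genes (24.8%) were called, 13 higher and 13 lower in DG, against 66.6% of all genes (32.9% higher and 33.7% lower). The libraries of the DG and SVZ groups did not overlap for 19 of the 105 genes (18.1%), with every DG library above for 12 and below for 7, against 58.0% of all genes (29.7% above and 28.3% below). A log2 fold change of at least 1 in size was reached by 3 genes, all of them complex IV isoforms, against 35.6% of all genes. The median log2 fold change was -0.07 for the 105 genes and -0.07 for all genes, and the median size was 0.22 for the 105 genes and 0.69 for all genes. Among the 5443 genes with a mean of 5 to 9 log2 CPM, the median was -0.19 and the median size 0.53. Of these 5443 genes, 27.6% were called higher and 42.3% lower in DG. For the 105 genes the lower count depended on single libraries: it was 29 without DG 5 and 7 without SVZ 3. Their higher count lay between 11 and 16 whichever library was left out.

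Complex I had a median log2 fold change of 0.01 and 4 genes called higher against 1 called lower, and complex II a median of 0.19 with 1 gene higher and 0 lower. Complex III had a median of -0.12 with 0 genes higher and 2 lower, complex IV -0.31 with 3 higher and 4 lower, and complex V -0.30 with 0 higher and 4 lower. All 16 complex V genes and all 12 complex IV genes other than the isoform genes Cox4i2, Cox6b2 and Cox7a1 had a negative log2 fold change, whereas all 7 nuclear core subunit genes of complex I had a positive one. Exceptions under other settings were 3 genes with values near 0. Cox8a turned positive when scaled by trimmed mean of M values (TMM, 0.0065) and without DG 3, SVZ 2 or SVZ 3 (0.0012 to 0.049). Atp5d of complex V turned positive without DG 5, SVZ 2 or SVZ 3 (0.044 to 0.052). The core gene Ndufv2 turned negative without DG 5 or SVZ 4 (-0.05 and -0.01). The 23 assembly factor genes had a median of 0.08, with 4 higher and 2 lower.

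**Figure D1:**
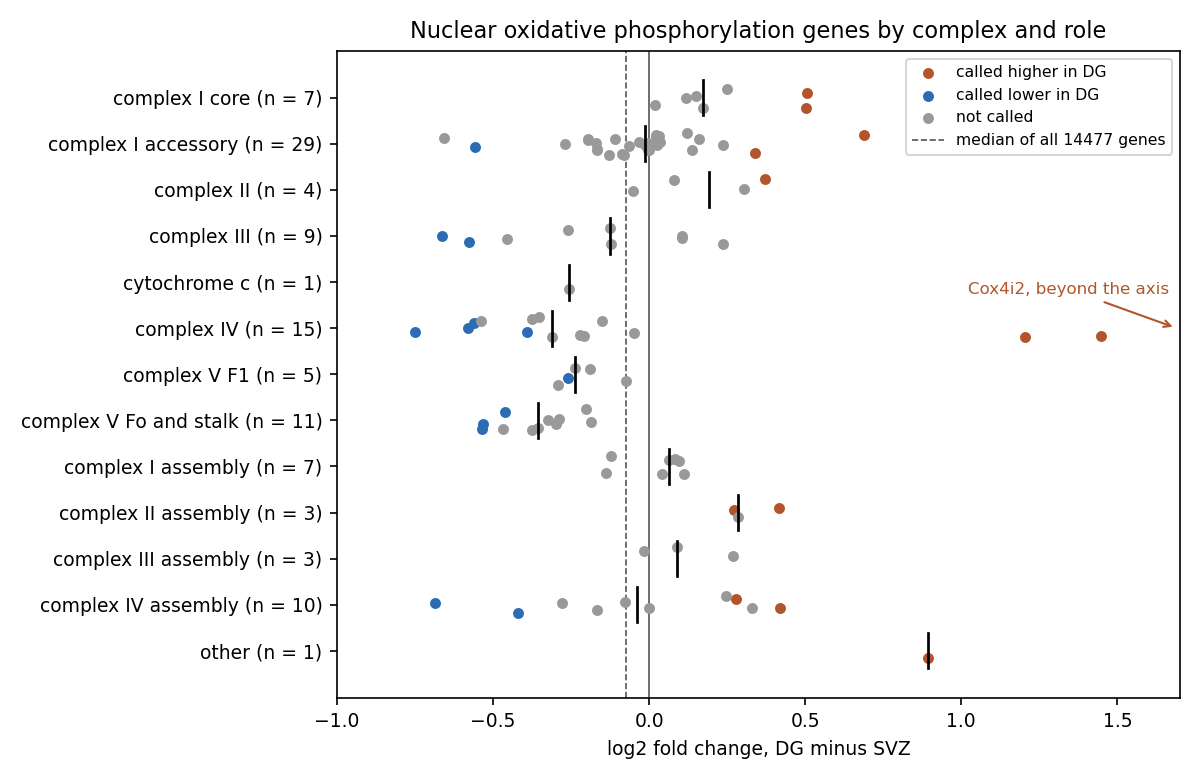
Log2 fold change, DG minus SVZ, of each of the 105 genes by complex and role. Points are genes, coloured by call (limma adjusted p under 0.05), black bars are class medians, and the dashed line is the median of all 14477 genes at -0.07; Cox4i2, at 5.38, lies beyond the axis. The complex V and most complex IV points lie left of 0, and the nuclear core subunits of complex I right of 0.

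Complex I had the smallest share of called genes of the 5 complexes, 13.9% against 66.6% of all genes, and they lay on both sides. Its 7 core subunits encoded in the nucleus, which carry the flavin and the iron-sulphur clusters in the arm that reaches into the matrix, had log2 fold changes of 0.02 to 0.51, and 2 of them, Ndufs7 and Ndufs8, were higher in DG. Both encode iron-sulphur subunits of the module that hands electrons to ubiquinone. Values are given in the order of library numbers. Ndufs7 (ENSMUSG00000020153, chr10:80249121-80256794, plus strand) stood at 7.26, 7.32, 7.33, 7.46 and 7.71 log2 CPM in DG libraries, against 6.71, 6.92, 7.07 and 6.94 log2 CPM in SVZ libraries. Ndufs8 (ENSMUSG00000059734, chr19:3908863-3912774, minus strand) stood at 7.16, 7.26, 7.05, 7.25 and 7.63 log2 CPM in DG libraries, against 6.73, 6.70, 6.80 and 6.82 log2 CPM in SVZ libraries. The lowest DG library was above the highest SVZ library for both genes, and their levels in DG were 1.42 and 1.42 times those in SVZ (log2 fold change 0.50, SE 0.11, adjusted p = 0.0021 for Ndufs7 and log2 fold change 0.51, SE 0.11, adjusted p = 0.00219 for Ndufs8). The core genes Ndufv1, Ndufv2, Ndufs1 and Ndufs3 had log2 fold changes of 0.02 to 0.25 and did not pass the test.

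Of the 29 accessory subunit genes, which encase the core, 26 did not pass the test. None of the 12 numbered Ndufa genes counted here and none of the 10 Ndufb genes did, and their log2 fold changes lay between -0.20 and 0.24. Ndufc2, which encodes a subunit of the membrane arm, had the largest positive value in complex I. Its levels were 7.86, 8.09, 7.84, 8.35 and 8.57 log2 CPM in DG libraries, against 7.44, 7.42, 7.59 and 7.37 log2 CPM in SVZ libraries, with all DG libraries above all SVZ libraries (log2 fold change 0.69, SE 0.15, adjusted p = 0.00157). Ndufv3, an accessory subunit beside the NADH-binding site, was 1.26 times as high in DG, at 6.81, 6.95, 6.90, 6.99 and 7.20 log2 CPM in DG libraries, against 6.52, 6.59, 6.86 and 6.55 log2 CPM in SVZ libraries, with DG 1 below SVZ 3 (log2 fold change 0.34, SE 0.11, adjusted p = 0.0149).

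Ndufs4 (ENSMUSG00000021764, chr13:114287795-114388258, minus strand), the accessory subunit whose loss in mice gives a Leigh-like brain disease, moved the other way. It stood at 6.14, 6.51, 6.08, 6.20 and 6.70 log2 CPM in DG libraries, against 6.89, 6.89, 6.91 and 6.84 log2 CPM in SVZ libraries. No DG library reached the SVZ range, and the DG level was 67.9% of the SVZ level (log2 fold change -0.56, SE 0.13, adjusted p = 0.00271). Ndufab1, the mitochondrial acyl carrier protein, had the most negative value of the complex at -0.66, but its libraries overlapped (1.77 to 3.15 log2 CPM in DG libraries, against 2.70 to 3.91 log2 CPM in SVZ libraries) and it did not pass the test (adjusted p = 0.0928). Without DG 5 the number of complex I genes called lower was 4, against 1 in all libraries.

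Complex II, the only complex with no mitochondrially encoded subunit, had 1 called gene of 4. This was Sdha (ENSMUSG00000021577, chr13:74322254-74350280, minus strand), the flavoprotein that oxidises succinate. Sdha stood at 9.65, 9.68, 9.64, 9.86 and 9.76 log2 CPM in DG libraries, against 9.30, 9.38, 9.37 and 9.34 log2 CPM in SVZ libraries. Groups did not overlap, and the level in DG was 1.29 times that in SVZ (log2 fold change 0.37, SE 0.07, adjusted p = 0.00107). Per length this was 291 ± 19.1 RPKM in DG and 224 ± 5.39 RPKM in SVZ libraries (SD, n = 5 and 4), where RPKM is CPM divided by the merged exon length of the gene's coding transcripts in kilobases.

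The other complex II genes were not called. Sdhb, the iron-sulphur subunit, stood at 7.997, 8.10, 7.93, 8.10 and 8.37 log2 CPM in DG libraries, against 8.05, 8.23, 8.16 and 8.16 log2 CPM in SVZ libraries, with overlapping groups and a 95% interval of the log2 fold change of -0.27 to 0.16 (adjusted p = 0.641). Sdhc, a membrane anchor that holds the haem, stood at 7.72, 7.74, 7.20, 7.77 and 7.94 log2 CPM in DG libraries, against 7.29, 7.41, 7.47 and 7.31 log2 CPM in SVZ libraries. DG 3 was below all SVZ libraries for Sdhc and the other 4 DG libraries were above them, and the gene was not called in all libraries (log2 fold change 0.30, SE 0.13, adjusted p = 0.0639) but was called without DG 3 (adjusted p = 0.00133), which gave 2 called genes in complex II. Sdhd, the other anchor, stood at 7.28, 7.48, 7.08, 7.43 and 7.65 log2 CPM in DG libraries, against 7.28, 7.30, 7.41 and 7.22 log2 CPM in SVZ libraries (interval -0.17 to 0.33, adjusted p = 0.554).

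Complex III had 2 of 9 genes (22.2%) lower in DG and 0 higher, against 33.7% of all genes lower and 32.9% higher. Uqcrfs1 (ENSMUSG00000038462, chr13:30540308-30545362, minus strand), the Rieske iron-sulphur protein that accepts electrons from ubiquinol, stood at 3.27, 3.88, 3.56, 3.48 and 4.04 log2 CPM in DG libraries, against 4.52, 4.16, 4.28 and 4.28 log2 CPM in SVZ libraries. The 5 DG libraries lay below the 4 SVZ libraries, at 63.2% of the SVZ level (log2 fold change -0.66, SE 0.17, adjusted p = 0.00551). Uqcrh, the hinge protein beside cytochrome c1, stood at 6.98, 7.38, 6.60, 7.17 and 7.80 log2 CPM in DG libraries, against 7.72, 7.73, 8.07 and 7.52 log2 CPM in SVZ libraries. DG 5 overlapped the SVZ libraries for Uqcrh (log2 fold change -0.58, SE 0.21, adjusted p = 0.0285), and this call was lost without DG 1, DG 4, SVZ 2 or SVZ 3 (adjusted p = 0.05001 to 0.0877), which left 1 gene lower in DG.

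The other 7 complex III genes spanned -0.46 to 0.24. Cyc1, cytochrome c1 itself, was at 4.19, 3.59, 4.03, 3.71 and 3.79 log2 CPM in DG libraries, against 3.83, 5.02, 4.35 and 4.06 log2 CPM in SVZ libraries, with SVZ 2 the highest library, and it was not called (log2 fold change -0.46, SE 0.23, adjusted p = 0.0998) except without SVZ 1 (adjusted p = 0.0377). The large core proteins Uqcrc1 and Uqcrc2 had log2 fold changes of 0.24 and 0.11, and neither passed the test. Cycs, the mobile carrier between complexes III and IV, stood at 5.32, 5.64, 5.36, 5.52 and 5.85 log2 CPM in DG libraries, against 5.71, 5.86, 5.88 and 5.73 log2 CPM in SVZ libraries with overlapping groups (log2 fold change -0.26, SE 0.12, adjusted p = 0.0826), and it was called lower without DG 5 (adjusted p = 0.0175).

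Complex IV, cytochrome c oxidase, held the widest differences among the 105 genes, in its isoform genes, and negative log2 fold changes in all its other subunit genes (in all but Cox8a with TMM scaling and without DG 3, SVZ 2 or SVZ 3). Its catalytic core is mitochondrially encoded, and several of its nuclear subunits exist as paired isoforms, a common form and one known from particular tissues. The 3 genes of the second kind that were measured, Cox4i2, Cox6b2 and Cox7a1, were all higher in DG. Of the other 12 genes 4 (33.3%) were lower and 0 higher. This share called lower was near the 33.7% of all genes, of which 32.9% were called higher. All 14477 genes of the table were over 1 CPM in at least 3 libraries, so an isoform gene low in both groups would be missing. Of the SVZ libraries only SVZ 3 had Cox7a1 over 1 CPM, so its place in the table came from its DG libraries. That all 3 were higher is therefore set in part by this level, at least for Cox7a1.

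Cox4i2 (ENSMUSG00000009876, chr2:152754173-152765037, plus strand) encodes the isoform of subunit 4 that is known from lung and from oxygen-sensing cells, and in brain from pericytes. It stood at 7.02, 7.11, 6.47, 6.92 and 6.50 log2 CPM in DG libraries, against 1.23, 0.87, 2.01 and 1.605 log2 CPM in SVZ libraries. Every DG library lay more than 4 log2 units above every SVZ library, and the DG level was 41.5 times the SVZ level (log2 fold change 5.38, SE 0.23, adjusted p = 2.45e-08), the largest difference among the 105 genes. The counts behind it were 3221 to 4971 reads in DG libraries, against 56 to 126 reads in SVZ libraries. Its common partner Cox4i1 (ENSMUSG00000031818, chr8:120668222-120674207, plus strand) stood at 8.66, 8.92, 8.51, 8.79 and 9.22 log2 CPM in DG libraries, against 9.10, 9.24, 9.47 and 9.03 log2 CPM in SVZ libraries. Cox4i1 was slightly lower in DG with DG 5 among the SVZ libraries (log2 fold change -0.39, SE 0.14, adjusted p = 0.0315), a call lost without DG 1, DG 3, DG 4, SVZ 2 or SVZ 3 (adjusted p = 0.0581 to 0.101).

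Per length, the share of Cox4i2 in the summed Cox4i1 and Cox4i2 transcripts was 23.8, 21.7, 19.1, 21.03 and 12.9% in DG libraries, against 0.409, 0.287, 0.544 and 0.558% in SVZ libraries. The mean was 19.7% ± 4.17 in DG and 0.449% ± 0.127 in SVZ libraries (SD, n = 5 and 4), and DG 5 had the lowest share of the DG libraries. The summed pericyte markers were 11037, 12369, 7367, 9832 and 5730 CPM in DG libraries 1 to 5, so DG 2 was highest and DG 3 and DG 5 lowest for both those markers and Cox4i2, and the part of pericyte RNA in the Cox4i2 level was not tested. Ndufa4l2, a paralog of the complex IV subunit gene Ndufa4 that was left out of the 105 genes by name, was also higher in DG, at 8.22, 8.12, 7.63, 7.86 and 7.05 log2 CPM in DG libraries, against 1.81, 0.28, 1.17 and 0.53 log2 CPM in SVZ libraries (log2 fold change 6.83, SE 0.32, adjusted p = 3.4e-08). Ndufa4 itself stood at 6.91 to 7.82 log2 CPM in DG libraries, against 7.24 to 7.61 log2 CPM in SVZ libraries and was not called (log2 fold change -0.21, SE 0.17, adjusted p = 0.291).

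Cox6b2, the isoform of subunit 6B known from testis, stood at 3.06, 3.25, 2.95, 3.21 and 3.16 log2 CPM in DG libraries, against 1.00, 1.79, 2.32 and 1.59 log2 CPM in SVZ libraries. All DG libraries lay above all SVZ libraries (log2 fold change 1.45, SE 0.24, adjusted p = 0.000305), and its share of the subunit 6B transcripts per length was 4.39% ± 0.749 in DG and 1.29% ± 0.329 in SVZ libraries. Cox7a1, the isoform of subunit 7A known from heart and skeletal muscle, stood at 0.81, 0.96, 0.70, 1.32 and 1.33 log2 CPM in DG libraries, against -0.09, -0.32, 0.27 and -0.57 log2 CPM in SVZ libraries. It was higher in all DG libraries than in any SVZ library (log2 fold change 1.20, SE 0.27, adjusted p = 0.00221), from counts of 58 to 102 reads in DG libraries, against 21 to 37 reads in SVZ libraries, and made up 2.02% ± 0.328 in DG and 0.582% ± 0.0716 in SVZ libraries of the Cox7a1 and Cox7a2 transcripts per length. The common forms thus stayed by far the more abundant in both groups for these subunits.

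**Figure D2:**
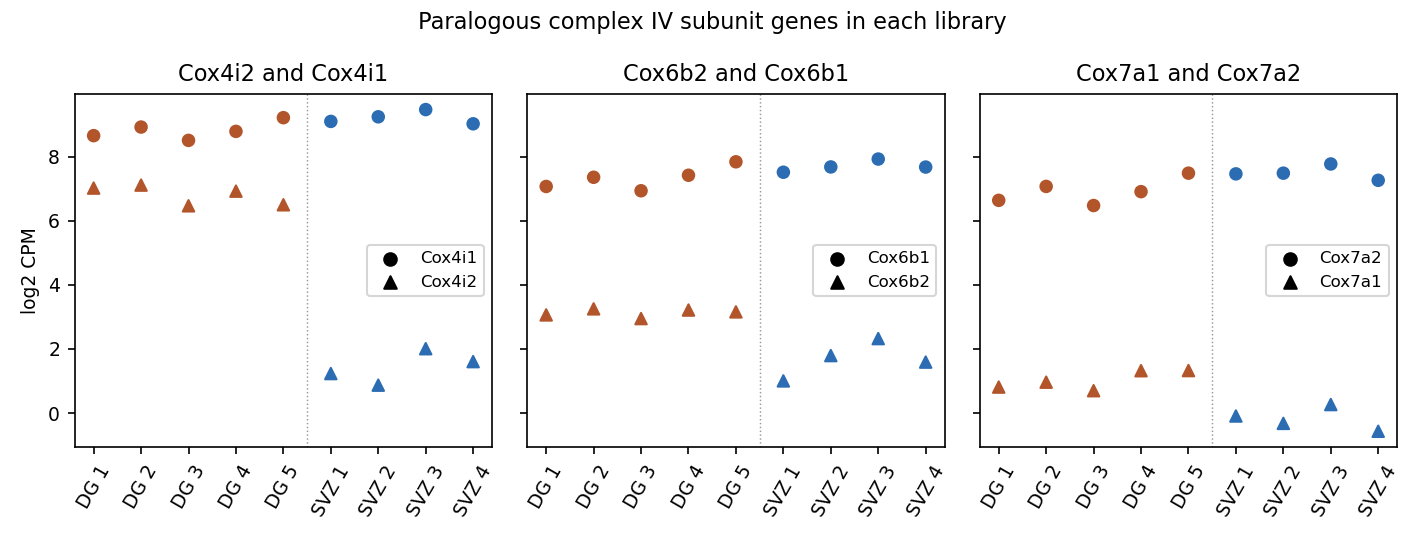
Level in log2 CPM (y axis) of each of 3 complex IV isoform genes (triangles) and its common partner (circles) in each library (x axis), with DG libraries in brown and SVZ libraries in blue. Cox4i2 is near 7 in DG and near 1.4 in SVZ libraries, Cox6b2 and Cox7a1 differ by 1.45 and 1.20, and the circles by -0.39, -0.37 and -0.58.

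The remaining complex IV genes had a median log2 fold change of -0.36, between -0.75 and -0.05. Cox7c (ENSMUSG00000017778, chr13:86044816-86046904, minus strand), a small membrane subunit, had the most negative value of the 105 genes. It stood at 5.62, 6.15, 5.54, 6.05 and 6.51 log2 CPM in DG libraries, against 6.59, 6.72, 7.06 and 6.52 log2 CPM in SVZ libraries. All DG libraries were below all SVZ libraries, although DG 5 (6.51) and SVZ 4 (6.52) nearly met (log2 fold change -0.75, SE 0.20, adjusted p = 0.0057). For Cox7c 23.0% of 50-base words of its transcripts also occur in transcripts of other genes, which makes its level uncertain.

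Cox7a2, the common form of subunit 7A, stood at 6.64, 7.07, 6.48, 6.91 and 7.49 log2 CPM in DG libraries, against 7.46, 7.49, 7.77 and 7.26 log2 CPM in SVZ libraries. DG 5 overlapped the SVZ libraries (log2 fold change -0.58, SE 0.19, adjusted p = 0.0175), and the call was lost without SVZ 3 (adjusted p = 0.0576). Cox7a2l stood at 6.45, 6.77, 6.16, 6.48 and 6.75 log2 CPM in DG libraries, against 7.06, 7.07, 7.26 and 6.95 log2 CPM in SVZ libraries. All DG libraries lay below all SVZ libraries for Cox7a2l, at 67.8% of the SVZ level (log2 fold change -0.56, SE 0.13, adjusted p = 0.00289), with 17.8% of its words shared with other genes.

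The common forms Cox6a1, Cox6b1 and Cox8a were not called. Cox6a1 stood at 7.92, 8.03, 7.81, 8.16 and 8.52 log2 CPM in DG libraries, against 8.18, 8.40, 8.49 and 7.89 log2 CPM in SVZ libraries (log2 fold change -0.15, SE 0.16, adjusted p = 0.413), and Cox6b1 at 7.07, 7.36, 6.94, 7.42 and 7.84 log2 CPM in DG libraries, against 7.52, 7.68, 7.93 and 7.68 log2 CPM in SVZ libraries (log2 fold change -0.37, SE 0.17, adjusted p = 0.0673). Cox8a, the smallest of the 3, stood at 6.73, 6.82, 6.54, 6.99 and 7.25 log2 CPM in DG libraries, against 6.64, 7.06, 7.20 and 6.75 log2 CPM in SVZ libraries (log2 fold change -0.05, SE 0.16, adjusted p = 0.8). The groups overlapped for each of them, and Cox6b1 was called lower without DG 5 (adjusted p = 0.00649). Without DG 5 the number of complex IV genes lower in DG was 8, and without SVZ 3 it was 2.

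Complex V had 4 of 16 genes lower in DG and 0 higher, by small amounts. The log2 fold changes were -0.29 to -0.07 for the 5 genes of the F1 head, which makes ATP, and -0.53 to -0.19 for the 11 genes of the membrane part and the stalks. Atp5f1 (ENSMUSG00000000563, chr3:105942698-105960099, minus strand), subunit b of the peripheral stalk, stood at 7.98, 8.23, 7.91, 8.11 and 8.31 log2 CPM in DG libraries, against 8.56, 8.62, 8.62 and 8.48 log2 CPM in SVZ libraries. It was the only complex V gene whose groups did not overlap, at 72.6% of the SVZ level in DG (log2 fold change -0.46, SE 0.10, adjusted p = 0.00129). Its value carries a limit, since 37.6% of its 50-base words are shared with other genes and Wdr77 overlaps it on the opposite strand.

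Atp5j2, subunit f of the membrane part, stood at 6.48, 6.81, 6.36, 6.82 and 7.33 log2 CPM in DG libraries, against 7.15, 7.27, 7.51 and 7.24 log2 CPM in SVZ libraries. Only DG 5 reached the SVZ range, and the gene was lower in DG (log2 fold change -0.53, SE 0.17, adjusted p = 0.0183) except without SVZ 3 (adjusted p = 0.0579). Atp5c1, the central shaft of the F1 head, stood at 8.54, 8.80, 8.36, 8.65 and 8.89 log2 CPM in DG libraries, against 8.92, 8.91, 8.95 and 8.85 log2 CPM in SVZ libraries. DG 5 overlapped the SVZ libraries, and the call (log2 fold change -0.26, SE 0.11, adjusted p = 0.0481) was lost in 7 of the 9 fits that left out 1 library, all but those without DG 2 or DG 5 (adjusted p = 0.0622 to 0.103).

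The rotor ring of complex V is built from subunit c, which 3 genes encode as the same mature protein. Atp5g2 was lower in DG, at 4.61, 4.88, 4.30, 4.85 and 5.28 log2 CPM in DG libraries, against 5.22, 5.39, 5.47 and 5.199 log2 CPM in SVZ libraries (log2 fold change -0.53, SE 0.18, adjusted p = 0.0188), with DG 5 inside the SVZ range, and it was not called without SVZ 3 (adjusted p = 0.0542). Atp5g1 stood at 5.87, 6.15, 5.83, 6.17 and 6.57 log2 CPM in DG libraries, against 6.29, 6.46, 6.59 and 6.43 log2 CPM in SVZ libraries (log2 fold change -0.33, SE 0.15, adjusted p = 0.0699). Atp5g3, the most abundant of the 3 per length, stood at 6.88, 7.12, 6.52, 6.91 and 7.21 log2 CPM in DG libraries, against 7.20, 7.39, 7.38 and 6.89 log2 CPM in SVZ libraries (log2 fold change -0.29, SE 0.15, adjusted p = 0.113). Neither Atp5g1 nor Atp5g3 was called, though Atp5g1 was without DG 5 (adjusted p = 0.00658) and Atp5g3 without SVZ 4 (adjusted p = 0.0377). Of the subunit c transcripts per length Atp5g3 made up 76.4% ± 1.8 in DG and 73.9% ± 2.22 in SVZ libraries, and Atp5g2 17.1% ± 1.35 in DG and 19.7% ± 1.4 in SVZ libraries. For Atp5g2 38.3% of words are shared with other genes. The number of complex V genes lower in DG was 11 without DG 5 and 1 without SVZ 3.

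Atp5s, the factor B gene that belongs to none of the classes above, was higher in DG, at 3.51, 3.71, 3.53, 3.75 and 3.74 log2 CPM in DG libraries, against 2.55, 2.61, 2.77 and 3.08 log2 CPM in SVZ libraries. All DG libraries lay above all SVZ libraries, and the DG level was 1.86 times the SVZ level (log2 fold change 0.89, SE 0.16, adjusted p = 0.000399).

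Among the 23 assembly factor genes, all 3 measured genes of complex II had positive log2 fold changes (0.27 to 0.42) and 2 were higher in DG. Sdhaf3, which helps to place iron-sulphur clusters in Sdhb, stood at 4.11, 4.16, 3.89, 3.89 and 3.97 log2 CPM in DG libraries, against 3.46, 3.52, 3.54 and 3.84 log2 CPM in SVZ libraries. Sdhaf2, which helps to attach the flavin to Sdha, stood at 5.83, 5.89, 5.68, 5.91 and 6.10 log2 CPM in DG libraries, against 5.58, 5.57, 5.62 and 5.67 log2 CPM in SVZ libraries. Both had all DG libraries above all SVZ libraries, by small amounts (log2 fold change 0.42, SE 0.13, adjusted p = 0.0175 for Sdhaf3 and log2 fold change 0.27, SE 0.10, adjusted p = 0.0319 for Sdhaf2). The call was lost without SVZ 1 for Sdhaf3 (adjusted p = 0.0535) and in 6 of the 9 fits that left out 1 library for Sdhaf2, those without DG 2, DG 4, DG 5, SVZ 1, SVZ 2 or SVZ 3 (adjusted p = 0.0539 to 0.0727). The count of assembly genes higher in DG was 2 without SVZ 1.

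The 10 complex IV assembly genes split, with 2 higher and 2 lower (40.0% called, against 66.6% of all genes). Surf1, an early factor whose loss causes Leigh syndrome in humans, stood at 5.79, 5.89, 5.75, 5.99 and 6.15 log2 CPM in DG libraries, against 5.42, 5.47, 5.47 and 5.64 log2 CPM in SVZ libraries. Cox10, which makes the precursor of haem A, stood at 5.64, 5.58, 5.57, 5.67 and 5.65 log2 CPM in DG libraries, against 5.29, 5.43, 5.42 and 5.23 log2 CPM in SVZ libraries. Both were higher in every DG library than in any SVZ library (log2 fold change 0.42, SE 0.11, adjusted p = 0.00488 for Surf1 and log2 fold change 0.28, SE 0.09, adjusted p = 0.0167 for Cox10). An exon of Surf1 overlaps Surf2 on the opposite strand, and since the library kit does not mark strand, reads of the pair cannot be told apart there.

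The genes of this class that were lower in DG were Cox19 and Sco1. Cox19, a copper-binding protein of the intermembrane space, stood at 5.87, 6.09, 5.65, 5.85 and 5.94 log2 CPM in DG libraries, against 6.59, 6.50, 6.69 and 6.48 log2 CPM in SVZ libraries. Sco1, which delivers copper to the catalytic core, stood at 4.42, 4.28, 4.48, 4.16 and 3.94 log2 CPM in DG libraries, against 4.73, 4.78, 4.60 and 4.60 log2 CPM in SVZ libraries. All DG libraries lay below all SVZ libraries for both, and the DG level was 62.2% of the SVZ level for Cox19 and 74.8% for Sco1 (log2 fold change -0.69, SE 0.10, adjusted p = 0.000136 for Cox19 and log2 fold change -0.42, SE 0.13, adjusted p = 0.0164 for Sco1). Cox11 and Cox17, which also handle copper and were picked after their values were seen, had log2 fold changes of -0.28 and -0.17 and did not pass the test. None of the 7 complex I assembly genes (-0.14 to 0.11) and none of the 3 of complex III (-0.02 to 0.27) was called.

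The balance between complexes was also set within each library, where any scaling of the library cancels. The mean log2 CPM over the 16 complex V genes was 6.73, 6.995, 6.55, 6.92 and 7.25 in DG libraries, against 7.12, 7.27, 7.44 and 6.99 in SVZ libraries. For complex I the mean over 36 genes was 6.26, 6.42, 6.24, 6.47 and 6.72 in DG libraries, against 6.30, 6.47, 6.61 and 6.24 in SVZ libraries. DG 5 was the highest DG library in both means and SVZ 3 the highest SVZ library, and each mean overlapped between the groups. The difference of the means, complex V minus complex I, was 0.47, 0.57, 0.31, 0.45 and 0.52 in DG libraries, against 0.82, 0.80, 0.83 and 0.75 in SVZ libraries. All DG libraries lay below all SVZ libraries in this difference, which averaged 0.46 ± 0.10 in DG and 0.80 ± 0.04 in SVZ libraries (SD, n = 5 and 4).

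In complexes III and IV the same differences were taken. Complex III minus complex I was 0.06, 0.08, 0.02, 0.01 and 0.11 in DG libraries, against 0.27, 0.30, 0.25 and 0.26 in SVZ libraries. Complex IV, without its 3 tissue-type isoform genes, minus complex I was -0.00, 0.06, -0.09, 0.01 and 0.06 in DG libraries, against 0.37, 0.48, 0.49 and 0.25 in SVZ libraries. In both differences the DG libraries lay below the SVZ libraries without overlap. Over all 15 complex IV genes, the 3 isoform genes that were higher in DG included, the difference was -0.65 to -0.48 in DG libraries, against -0.87 to -0.63 in SVZ libraries, with overlapping groups. Its mean was higher in DG. Within complex I, the core minus the accessory genes was 1.19, 1.05, 1.06, 1.01 and 0.93 in DG libraries, against 0.82, 0.76, 0.61 and 0.87 in SVZ libraries, and here all DG libraries lay above. The reads of each class were also summed, a choice made after seeing the data that gives abundant genes more weight. By summed reads the log2 ratio to complex I still lay lower in all DG than in all SVZ libraries for complex V (-0.21 to 0.02 in DG libraries, against 0.16 to 0.31 in SVZ libraries). The same order held for all 15 complex IV genes (-1.36 to -1.14 in DG libraries, against -0.97 to -0.81 in SVZ libraries). The groups overlapped by summed reads for complex III over complex I (-1.60 to -1.50 in DG libraries, against -1.53 to -1.41 in SVZ libraries) and for core over accessory genes (-1.48 to -1.16 in DG libraries, against -1.64 to -1.44 in SVZ libraries). By means of log2 CPM, complex II minus complex I (1.71 to 1.90 in DG libraries, against 1.49 to 1.77 in SVZ libraries) and assembly factors minus complex I (-1.82 to -1.56 in DG libraries, against -1.82 to -1.54 in SVZ libraries) overlapped. These differences of log2 CPM means are descriptions without a test, and they compare the same genes between libraries, not the levels of one complex with another.

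**Figure D3:**
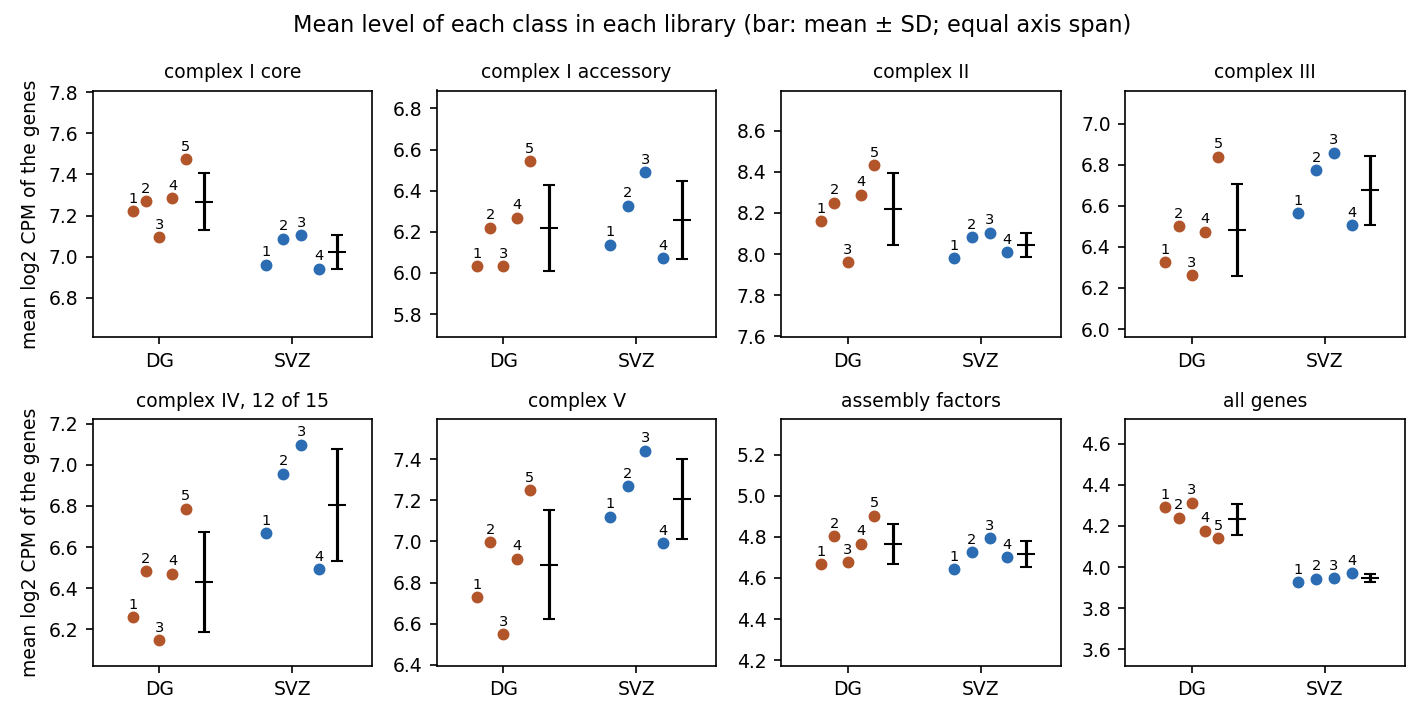
Mean log2 CPM (y axis) of the genes of each class in each numbered DG (brown) and SVZ (blue) library, with mean ± SD bars and the same span on every axis; complex IV is drawn without Cox4i2, Cox6b2 and Cox7a1. DG 5 and SVZ 3 are the highest of their groups in the subunit classes, and complex V averages 6.89 ± 0.27 in DG and 7.21 ± 0.19 in SVZ libraries.

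**Figure D4:**
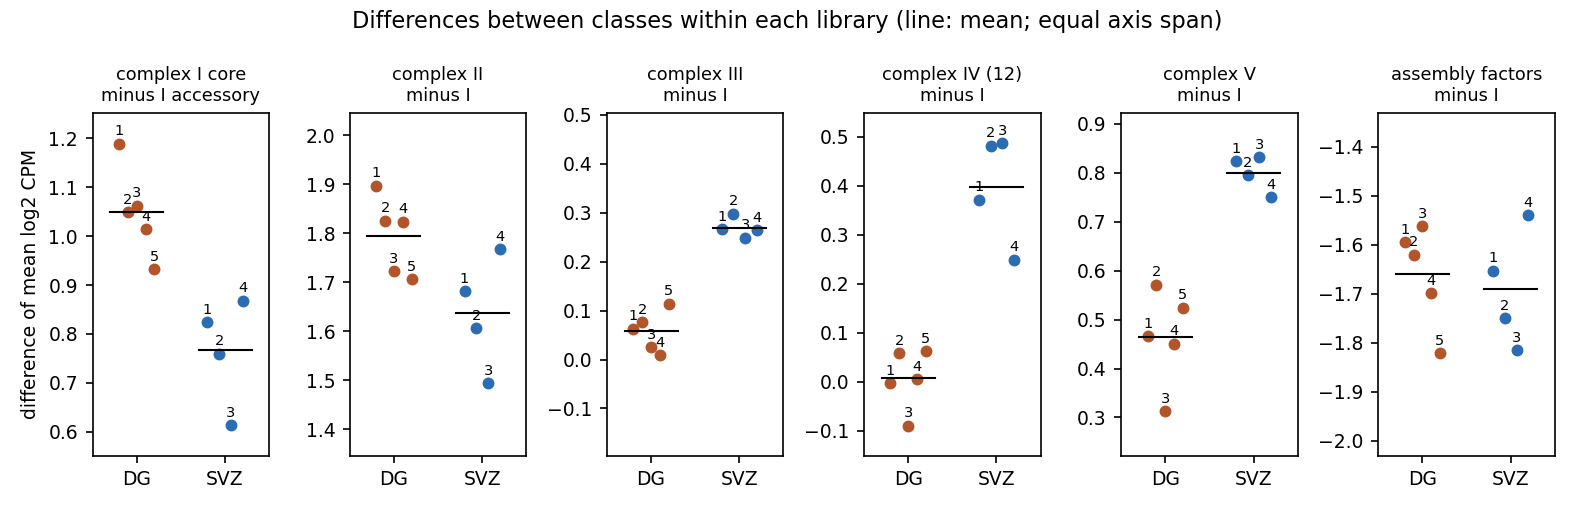
Difference between class means (log2 CPM, y axis) within each numbered library of the DG (brown) and SVZ (blue) groups, with lines at group means. The 5 DG libraries lie above the 4 SVZ libraries for core minus accessory genes of complex I, and below them for complexes III, IV and V minus complex I. Complex IV is drawn over 12 genes, without Cox4i2, Cox6b2 and Cox7a1; over all 15 the groups overlap.

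Libraries of a group differed from one another in these genes as a block. DG 5 was the highest DG library for 79 of the 105 genes, with a median deviation from the group mean of 0.33, and DG 3 was the lowest for 70, with a median deviation of -0.22. SVZ 3 was the highest SVZ library for 78 genes (median deviation 0.19), and SVZ 4 the lowest for 62 (-0.13). Over all 14477 genes the median deviations of these libraries were -0.05, 0.01, -0.01 and 0.04.

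These deviations moved with transcript length. The 105 genes have short transcripts, with class medians from 659 bases in complex IV and 824 in complex V through 977 in complex I to 2066 in complex II, against 3278 bases over 13254 genes of the table. The value of DG 5 minus the other DG libraries had a Spearman correlation with transcript length of -0.64 across the 105 genes and -0.34 across 13254 genes, which share the same libraries and are not independent. For SVZ 3 minus the other SVZ libraries the correlations were -0.58 and -0.29, and for DG 3 they were 0.46 and 0.32. The log2 fold change between DG and SVZ had correlations with length of 0.13 across the 105 genes and -0.06 across 13254 genes, and with GC content of 0.19 and 0.10. Within complex I the median length was 1623 bases for core and 875 bases for accessory genes. The core minus accessory difference was lowest in DG 5 among DG libraries and in SVZ 3 among SVZ libraries. The part of length in the calls and in the differences between classes was not tested.

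**Figure D5:**
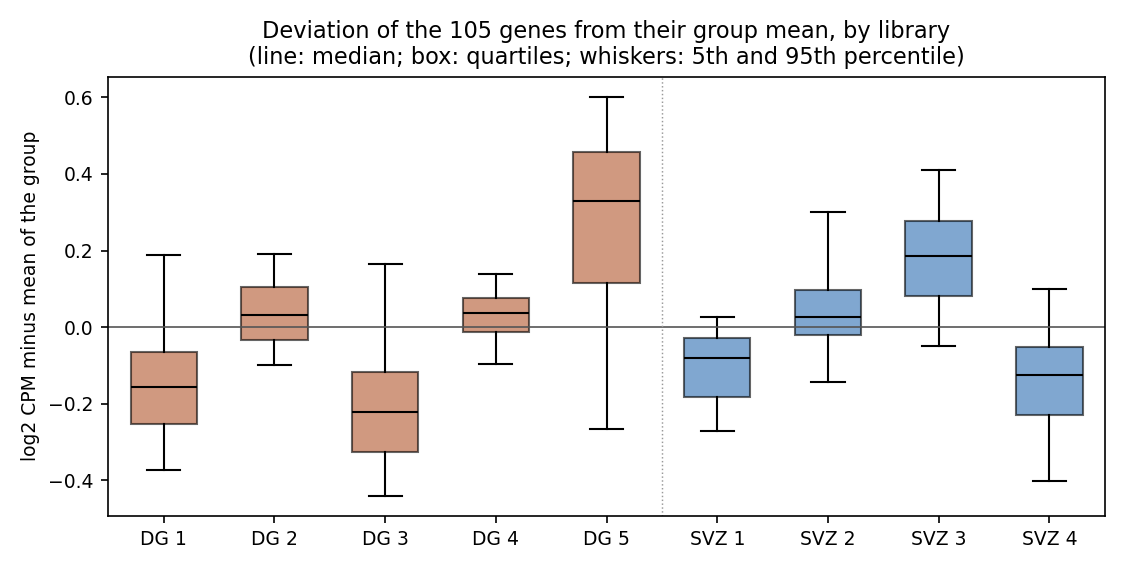
Deviation of the 105 genes from the mean of their own group in log2 CPM (y axis) for each DG (brown) and SVZ (blue) library. Boxes show quartiles, lines medians and whiskers the 5th and 95th percentiles; DG 5 lies highest, with a median of 0.33, and DG 3 lowest, at -0.22.

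Sequence shared with other genes touched many members. At least 10% of the 50-base words of 27 genes occur in transcripts of other genes, 33 genes have an exon that overlaps another gene, and 60 have neither. Among the 60, 10 (16.7%) were called higher and 8 (13.3%) lower in DG, against 32.9% and 33.7% of all genes. Complexes I, II and III kept all their calls. In complex IV 3 of 9 genes were called higher and 1 lower, and in complex V 0 of 8 higher and 2 lower. None of these complex IV or V genes had all DG libraries below all SVZ libraries. Of 14 assembly factor genes 1 was called higher and 2 lower. Cox5a, a structural subunit of complex IV with 32.0% shared words, averaged 1.47 ± 0.24 log2 CPM in DG and 2.01 ± 1.09 log2 CPM in SVZ libraries, and its level is uncertain.

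Promoters of the called genes were examined for the binding motifs of factors known to drive this pathway. RefSeq promoters (GRCm38.p6, 250 bases before to 50 after the start) matched 89 of the 105 genes. The motifs searched on both strands were GCGC and TGCGC with any 1 base between them for NRF1, CCGGAAGT for ETS factors such as GABP, and AAGATGGC for YY1, and matches of different motifs overlapped in 0 promoters. At least 1 match was found in 41.6% of the 89 promoters, against 21.1% of 10640 promoters of the table's genes and 10.8% of all 27025 promoters. NRF1 matches were in 23.6% of the 89, 10.2% of the table's and 4.78% of all promoters, ETS matches in 8.99%, 8.13% and 4.00%, and YY1 matches in 13.5%, 4.53% and 2.88%. By call, 4 of 12 promoters of genes higher in DG, 5 of 12 of genes lower and 28 of 65 of genes not called held a match. Complex V had matches in 7 of 14 promoters, complex I in 14 of 32 and complex IV in 2 of 12.

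Promoters of 3 genes higher and 3 genes lower in DG are shown, 5′ to 3′ along the gene's strand, to set called genes with and without a match side by side; capitals mark motif matches. Among the higher genes, Sdha (chr13:74350191-74350490, minus strand) has 3 NRF1 matches, Ndufs7 (chr10:80249199-80249498, plus strand) has 1 YY1 match, and Ndufs8 (chr19:3912725-3913024, minus strand) has 0 matches.
Sdha: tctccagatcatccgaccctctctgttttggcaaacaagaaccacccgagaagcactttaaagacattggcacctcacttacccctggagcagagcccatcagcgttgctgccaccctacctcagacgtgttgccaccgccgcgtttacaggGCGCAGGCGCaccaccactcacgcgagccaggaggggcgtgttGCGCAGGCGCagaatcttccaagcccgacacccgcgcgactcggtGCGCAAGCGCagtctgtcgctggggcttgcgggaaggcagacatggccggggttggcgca
Ndufs7: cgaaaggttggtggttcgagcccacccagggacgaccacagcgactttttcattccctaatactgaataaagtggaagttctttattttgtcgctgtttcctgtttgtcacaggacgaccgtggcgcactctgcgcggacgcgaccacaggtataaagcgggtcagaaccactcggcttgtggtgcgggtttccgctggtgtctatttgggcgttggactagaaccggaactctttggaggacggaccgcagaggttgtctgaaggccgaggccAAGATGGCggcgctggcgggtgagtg
Ndufs8: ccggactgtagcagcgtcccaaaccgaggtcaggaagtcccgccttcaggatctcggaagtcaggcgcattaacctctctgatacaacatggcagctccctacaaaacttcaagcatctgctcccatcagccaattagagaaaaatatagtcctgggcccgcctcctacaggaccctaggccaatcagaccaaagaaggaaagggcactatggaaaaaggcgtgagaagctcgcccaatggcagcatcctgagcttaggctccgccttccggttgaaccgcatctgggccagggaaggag
Among the lower genes, Atp5f1 (chr3:105959214-105959513, minus strand) and Atp5j2 (chr5:145191492-145191791, minus strand) have 1 YY1 match each, and Cox7c (chr13:86046746-86047045, minus strand) has 0 matches.
Atp5f1: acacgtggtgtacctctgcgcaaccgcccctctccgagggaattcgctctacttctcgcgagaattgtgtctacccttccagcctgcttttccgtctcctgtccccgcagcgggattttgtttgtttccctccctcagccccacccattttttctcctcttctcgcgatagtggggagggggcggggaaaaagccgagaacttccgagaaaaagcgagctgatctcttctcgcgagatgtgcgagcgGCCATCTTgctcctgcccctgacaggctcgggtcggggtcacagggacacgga
Atp5j2: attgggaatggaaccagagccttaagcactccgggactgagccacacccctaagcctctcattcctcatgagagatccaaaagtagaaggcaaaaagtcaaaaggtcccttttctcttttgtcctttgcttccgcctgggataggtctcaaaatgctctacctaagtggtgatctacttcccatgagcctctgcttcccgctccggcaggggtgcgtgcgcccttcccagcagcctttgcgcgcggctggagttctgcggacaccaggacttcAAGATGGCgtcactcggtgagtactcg
Cox7c: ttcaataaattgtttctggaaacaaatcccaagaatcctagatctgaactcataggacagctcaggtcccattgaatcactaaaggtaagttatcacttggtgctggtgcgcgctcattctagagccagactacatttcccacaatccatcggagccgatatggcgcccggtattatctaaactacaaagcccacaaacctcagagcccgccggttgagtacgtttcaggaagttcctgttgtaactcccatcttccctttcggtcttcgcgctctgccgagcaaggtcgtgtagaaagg
The YY1 word thus lies near the start of both a gene that was higher and genes that were lower in DG, and these matches are letters in a window, not measured binding.

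The genes around the nuclear set were counted from lists. All 7 measured of 13 mitochondrially encoded subunit genes were lower in DG, against 33.7% of all genes. Their log2 fold changes were -0.97 to -0.55, with a median of -0.72. mt-Co1, the catalytic subunit of complex IV, stood at 9.46, 9.14, 9.64, 9.17 and 9.00 log2 CPM in DG libraries, against 10.04, 10.30, 10.09 and 10.55 log2 CPM in SVZ libraries (log2 fold change -0.97, SE 0.15, adjusted p = 0.000153). mt-Nd4, a membrane subunit of complex I, stood at 7.97, 7.72, 8.44, 8.07 and 7.91 log2 CPM in DG libraries, against 8.56, 8.81, 8.68 and 9.37 log2 CPM in SVZ libraries (log2 fold change -0.83, SE 0.18, adjusted p = 0.00154). For mt-Co1, mt-Nd4 and mt-Cytb all DG libraries were below all SVZ libraries, and for the other 4 the groups overlapped. The summed level of the 7 genes was 3079 to 4989 CPM in DG and 5325 to 8703 CPM in SVZ libraries.

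Of 13 genes of the citric acid cycle, 5 were higher and 0 lower in DG (median 0.08). This was 38.5% called, against 66.6% of all genes. Fh1, fumarate hydratase, which acts on the product of complex II, averaged 6.999 ± 0.19 log2 CPM in DG and 6.43 ± 0.11 log2 CPM in SVZ libraries (log2 fold change 0.57, SE 0.11, adjusted p = 0.000894), and Suclg2, a subunit of succinyl-CoA ligase, which makes its substrate, averaged 4.87 ± 0.19 log2 CPM in DG and 4.11 ± 0.40 log2 CPM in SVZ libraries (log2 fold change 0.76, SE 0.19, adjusted p = 0.00386). Among 13 genes of ubiquinone synthesis 2 were higher and 4 lower (median -0.01, 46.2% called). The smallest adjusted p was that of Coq8a, a kinase-like protein of the pathway, among the higher genes (log2 fold change 1.66, SE 0.13, adjusted p = 9.72e-07) and that of Pdss2, which makes the side chain, among the lower ones (log2 fold change -0.77, SE 0.17, adjusted p = 0.00182). Of 31 assembly factor genes outside the chosen symbols 4 were higher, such as Higd1a (0.52) and Coa4 (0.52), and 4 lower, such as Coa7 (-0.77) and Cep89 (-0.46), with a median of 0.02 and 25.8% called.

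Of 13 regulators of mitochondrial gene expression 6 were lower and 2 higher in DG, with a median of -0.34. The share called, 61.5%, was near the 66.6% of all genes. Nrf1, whose motif is given above, averaged 6.61 ± 0.15 log2 CPM in DG and 7.37 ± 0.15 log2 CPM in SVZ libraries (log2 fold change -0.76, SE 0.10, adjusted p = 7.16e-05), and Tfb1m, which methylates mitochondrial ribosomal RNA, averaged 2.53 ± 0.65 log2 CPM in DG and 4.57 ± 0.11 log2 CPM in SVZ libraries (log2 fold change -2.04, SE 0.29, adjusted p = 9.28e-05). Ppargc1a, the coactivator PGC-1 alpha, went the other way at 5.06, 4.95, 5.18, 5.37 and 5.26 log2 CPM in DG libraries, against 3.62, 3.86, 3.94 and 4.23 log2 CPM in SVZ libraries (log2 fold change 1.25, SE 0.14, adjusted p = 1.85e-05). Its relative Ppargc1b had 145 to 408 reads in DG libraries, against 3 to 46 reads in SVZ libraries. For Ppargc1a the DG and SVZ libraries did not overlap. They did not overlap for Ppargc1b either, but its SVZ counts went down to 3 reads, under 1 CPM. Its place in the table may come from its DG libraries, so that result may be set in part by the filter at 1 CPM. Of 8 genes of adenine nucleotide, phosphate and proton exchange 1 was higher, the uncoupling protein gene Ucp2 (log2 fold change 2.32, SE 0.15, adjusted p = 3.28e-07), and 2 were lower, Atpif1, the inhibitor of complex V (log2 fold change -1.18, SE 0.14, adjusted p = 2.71e-05), and the porin Vdac3 (log2 fold change -0.36, SE 0.09, adjusted p = 0.00553). This was 37.5% called, against 66.6% of all genes.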

How the data were processed

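RNA of sorted cells was copied from its poly-A tail with template switching, amplified by PCR and sheared, and the library chemistry keeps no strand information, per the labels' protocols. Per the submitters' processing notes, STAR, edgeR and the mm10 build were used by the authors; their versions, the counting tool and the gene models are not stated in the sources used here. The authors deposited log2 values, which are log2 CPM (reads scaled to the library total) after adding 1 read, scaled by library size, as inferred from the values themselves: every recovered read count was whole within 0.001. This prior count shrinks fold changes of genes with few reads. Library totals are sums over the 14477 genes, all of which were over 1 CPM in at least 3 libraries. Reads carry no molecular identifiers, so counting error is a lower limit of their error.

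Gene IDs were given GENCODE M21 symbols (mm10); 44 of 14477 IDs had none. The test was limma 3.58.1 (trend option, R version 4.3.3) fitted to all 14477 genes, DG minus SVZ, two-sided, Benjamini-Hochberg adjusted over all of them; intervals of single log2 fold changes are 95% intervals of this fit. It was first tested on simulated data. All 9 libraries entered. RPKM was computed from the recovered reads and the merged exon length of each gene's protein-coding transcripts in the GENCODE basic set, or of all its transcripts where it has none; correlations with length and GC content used the longest protein-coding transcript. Shared sequence was counted as 50-base words of a gene's transcripts found in those of other genes.

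The members, the pathway lists and the marker lists were chosen with earlier results of these data known, so no list or class has a test. Named are the isoform families of complexes IV and V, the complex II subunits, Cycs, Cyc1, Surf1, Sco1, up to 2 called genes per role and direction by smallest adjusted p, and the genes of largest change; genes named beyond this (Ndufab1, Ndufa4, Cox5a, Cox11, Cox17, the other core and large complex III subunits) were chosen after their values were seen. Alternatives were scaling by trimmed mean of M values (TMM), a prior count of 5 reads, a filter at a mean of 3 log2 CPM, the replicate number as a block, each library left out, and voom weights, the last chosen after seeing the data. Single values of some genes are not reported here.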

Additional observations from a re-analysis of the deposited data

How the results depend on the processing

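Of the 36 named genes, 17 kept their direction and their side of the threshold under every alternative, among them Cox4i2, Cox6b2, Cox7a1, Sdha, Ndufs7, Ndufs8, Ndufc2, Ndufs4, Uqcrfs1, Cox7c, Cox7a2l, Atp5f1, Cox19, Surf1 and Atp5s. Values near 0 changed sign for Sdhb with TMM scaling (0.0011) and for Cox8a with TMM scaling (0.0065) and without DG 3, SVZ 2 or SVZ 3 (leaving out each library gave Cox8a -0.14 to 0.049). TMM scaling gave 16 genes higher and 11 lower in DG, with 2 higher in complex II and 1 in complex III; Cox4i1 and Atp5c1 lost their calls (adjusted p = 0.0644 and 0.12) and Sdhc gained one (adjusted p = 0.0364). The filter on low values removed Cox7a1 and Cox6b2, which left 1 complex IV gene higher. A prior count of 5 reads and voom weights each gave 13 higher and 13 lower. Leaving out 1 library gave 7 to 29 genes lower in DG, 1 to 4 in complex I, 1 to 3 in complex III, 2 to 8 in complex IV and 1 to 11 in complex V, and gave 1 to 2 genes higher in complex II, 0 to 1 in complex III and 2 to 5 among assembly factors; the lowest counts of complexes IV and V came without SVZ 3 and the highest without DG 5. The median of complex I lay between -0.08 and 0.09 in these fits, and that of complex V between -0.42 and -0.21. The cause of these shifts was not tested. The planned tests of recovered read counts with count models were not run; voom weights on the same reads were used in their place.

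The replicate block could use only the 4 numbers that both groups share, and so left out DG 5. It gave 9 genes higher and 22 lower in DG, with 2 lower in complex I, 7 in complex IV, 8 in complex V and 1 among assembly factors, and 1 assembly factor gene higher; Sco1, Ndufv3, Sdhaf3, Sdhaf2 and Cox10 lost their calls (adjusted p = 0.0545 to 0.118) and Cox6b1, Atp5g1 and Cycs gained them. The numbers do not pair the libraries: correlations of same-numbered deviations were -0.17 to 0.01, and 0 DG libraries correlated best with their own number.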
